A study of Macaca mulatta with 24 samples.

Results

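ENSMMUT00000054851.1 is an Ensembl transcript of the rhesus macaque that was among the most read transcripts of the fetal lung and was close to absent from the fetal liver and hippocampus. It is 1 of 45579 transcripts listed for each tissue. It was chosen from the lung values themselves, as the 1 lung transcript that edgeR called different between oral and intramuscular betamethasone, so its lung difference is described here without a test, and the liver and hippocampus of the same animals are the part of the data that did not choose it. Neither the count tables nor the reference tables used here pair the transcript identifier with a gene, so the transcript is named by its identifier and no function is given for it.

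RNA of 3 tissues, lung, liver and hippocampus, was sequenced after polyA selection from each of 8 fetuses of Macaca mulatta, which gave 24 libraries. The mothers of 4 fetuses received the clinical treatment, the intramuscular combination of betamethasone phosphate and betamethasone acetate at 0.25 mg/kg in 2 doses 24 hr apart. The mothers of the other 4 received oral Beta-P, betamethasone phosphate by mouth at 0.15 mg/kg in 3 doses 12 hr apart. All fetuses were delivered 5 days after the start of the treatment. Their gestational age was 132 to 133 days (mean 132.75) with the clinical treatment and 127 to 132 days (mean 129.75) with oral Beta-P. No libraries from untreated or saline animals were analysed here. A lower value with oral Beta-P and a higher value with the clinical treatment therefore cannot be told apart. Within a treatment the animals are numbered 1 to 4 by their label numbers, and the same number in 3 tissues is the same fetus.

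Betamethasone is a fluorinated glucocorticoid that crosses the placenta and is given to the mother before preterm delivery to mature the fetal lung. It acts through the glucocorticoid receptor, a transcription factor that moves to the nucleus when it binds the hormone and raises or lowers the transcription of many genes. The fetal lung at this stage holds epithelial cells that differentiate into surfactant-secreting and gas-exchanging cells, along with mesenchyme and vessels. The liver and the hippocampus also express the receptor and are followed because of the metabolic and neurodevelopmental effects of corticosteroids.

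The totals were 21088272 to 28641485 counts per lung library, 25803825 to 32122919 per liver library and 22537044 to 35254898 per hippocampus library. Values are given as CPM, the count divided by the library's total and scaled to a total of 1000000. Counts are whole for lung and hippocampus and estimated for liver, so the tissues were normalized apart and no test was made between them. Libraries of the same tissue correlated with each other with a Spearman rho of at least 0.915 across all transcripts, and libraries of different tissues with at most 0.844. Tissue markers could not be examined without gene names.

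In the lung, the transcript was read at 3896 CPM in clinical animal 1, 3942 in animal 2, 3853 in animal 3 and 3297 in animal 4. With oral Beta-P it was read at 1978 CPM in animal 1, 2118 in animal 2, 1653 in animal 3 and 1747 in animal 4. All 4 oral values were thus below the lowest clinical value, with a gap of 1179 CPM between the nearest animals, while the values spread over 645 CPM within the clinical group and 465 CPM within the oral group. Because the tissue was sequenced in bulk, fewer cells that contain the transcript and less of it per cell cannot be told apart.

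**Figure D1:**
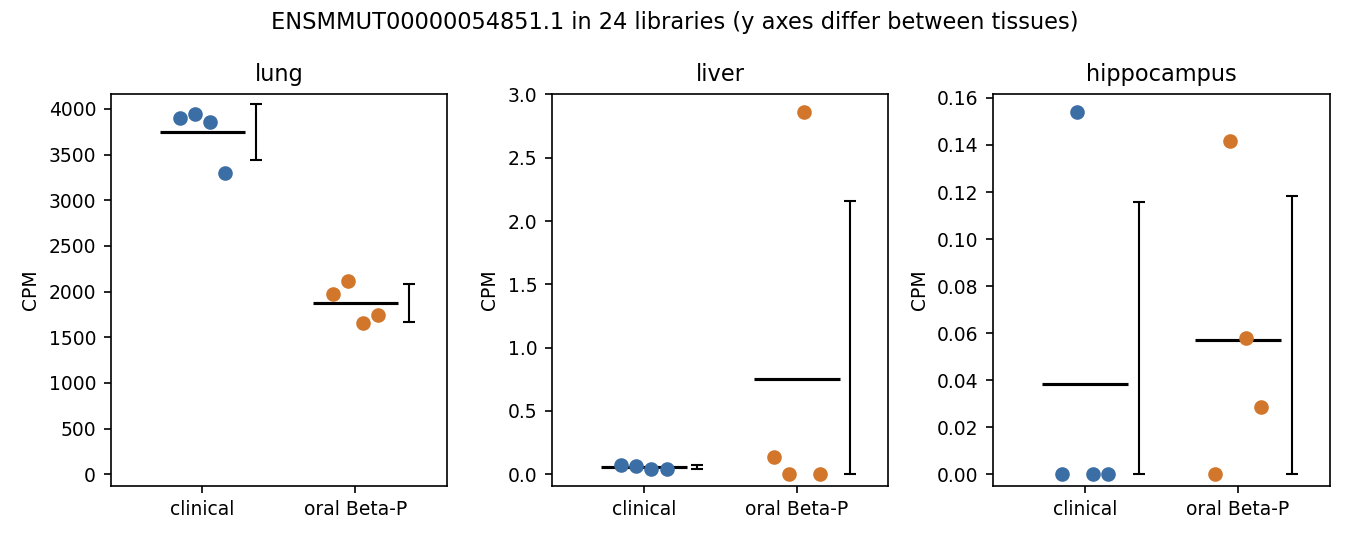
CPM of ENSMMUT00000054851.1 (y axis, with a different scale in each tissue) in the clinical and oral Beta-P libraries of the lung, liver and hippocampus. Each point is 1 animal, in the order of its number; horizontal lines are means and bars are 1 SD of 4 animals, drawn no lower than 0. The lung groups do not overlap, whereas outside the lung a single point, the liver of oral animal 3 at 2.86 CPM, lies above 0.154 CPM.

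The mean was 3747 ± 302 CPM (SD, n = 4) with the clinical treatment and 1874 ± 212 CPM (SD, n = 4) with oral Beta-P, which is 50.0% of the clinical mean. The log2 fold change of oral Beta-P over the clinical treatment was -1.01 with a standard error of 0.10 from edgeR's quasi-likelihood fit. The extremes of the animals bounded this from both sides, since the lowest clinical value was 1.56-fold the highest oral value and the highest clinical value was 2.38-fold the lowest oral value. These values rest on 78918 to 111597 counts per clinical library and 36546 to 44663 counts per oral library. The 95% Wilson interval of each library's share of counts was within 1.02% of the value, against a coefficient of variation between animals of 8.07% in the clinical and 11.3% in the oral group. Counting error was therefore small beside the spread between animals, and the intervals cover counting error alone.

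Of the 27108 lung transcripts tested, 0.00369% were called lower with oral Beta-P with a 1.5-fold or larger change, p below 0.05 and q below 0.1, which by edgeR is the 1 transcript described here. DESeq2 with these thresholds called 224 lower transcripts, 0.8% of 28006, this one among them, and 115 higher. In 2.94% of the 27108 transcripts tested by edgeR all 4 oral values lay below all 4 clinical values, and 2.79% of the 27108 were lower by at least 2-fold. The lung contrast chose the transcript, and these shares are given only as a background.

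Sequencing run and gestational age both differed between the treatments. With sequencing run as a covariate the lung log2 fold change was -0.93 with a standard error of 0.11. With gestational age as a covariate it was -0.94 with a standard error of 0.15. The part of either factor in the lung values was itself not tested. Clinical animals 1 and 2 had been sequenced in one run and the other 6 lungs in another. Within the run of 6 libraries the mean was 3575 CPM for the 2 clinical and 1874 CPM for the 4 oral animals, or 52.4% of the clinical value, and the 2 clinical animals of the other run averaged 3919 CPM. Clinical animal 1 and oral animal 1 were both delivered at 132 days, and the oral value was 50.8% of the clinical value in this pair. The pair was split between the 2 runs, and both clinical animals in the run of 6 were delivered at 133 days, later than every oral animal. Neither comparison therefore holds run and age equal together. Among the oral animals the lung value was 1653 CPM at 127 days, 2118 CPM at 129 days, 1747 CPM at 131 days and 1978 CPM at 132 days.

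Ranked by mean CPM over the 8 lung libraries, the transcript stood at position 14 of the 39677 transcripts with a count in the lung. The rank differed with treatment, as it was between 8 and 10 in the 4 clinical libraries and between 18 and 30 in the 4 oral libraries. It took 0.330% to 0.394% of all counts in the clinical lungs and 0.165% to 0.212% in the oral lungs. CPM are not corrected for transcript length, so a rank reflects length as well as the number of molecules. The transcripts ranked just above and just below it, ENSMMUT00000064003.1 with a mean of 2875 CPM and ENSMMUT00000029953.3 with 2696 CPM, were read more with oral Beta-P, at 3387 against 2363 CPM and 3065 against 2327 CPM, respectively. The SD over the 8 libraries was 719 CPM for the first and 494 CPM for the second, so the positions 13 to 15 are not separated beyond the spread.

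The other abundant transcripts of the lung differed less between the treatments. Because the lung contrast chose the transcript, its place beyond them was favoured by the choice and is only a description. In all, 56 lung transcripts had a mean of at least 1000 CPM. Among the 55 others the log2 fold changes ran from -0.50 for ENSMMUT00000029729.3 to 0.52 for ENSMMUT00000044332.2, with a median of -0.0015, so 0 of the 55 reached a fold change of 1.5 in either direction. Of the 56, 1.79% were lower by at least 1.5-fold and 8.93% had all oral values below all clinical values, against 7.55% and 2.94% of all transcripts tested, and the shares of the 56 include the transcript itself. Among the 55 others the treatments did not overlap in 4 that were lower and 3 that were higher with oral Beta-P. The shares over all transcripts tested are given here for lower values alone, so the higher ones have no background beside them. The spread of ENSMMUT00000054851.1 between animals of the same treatment was not unusual for this group. It was 0.139 on the log2 scale against a median of 0.183 over the 56.

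**Figure D2:**
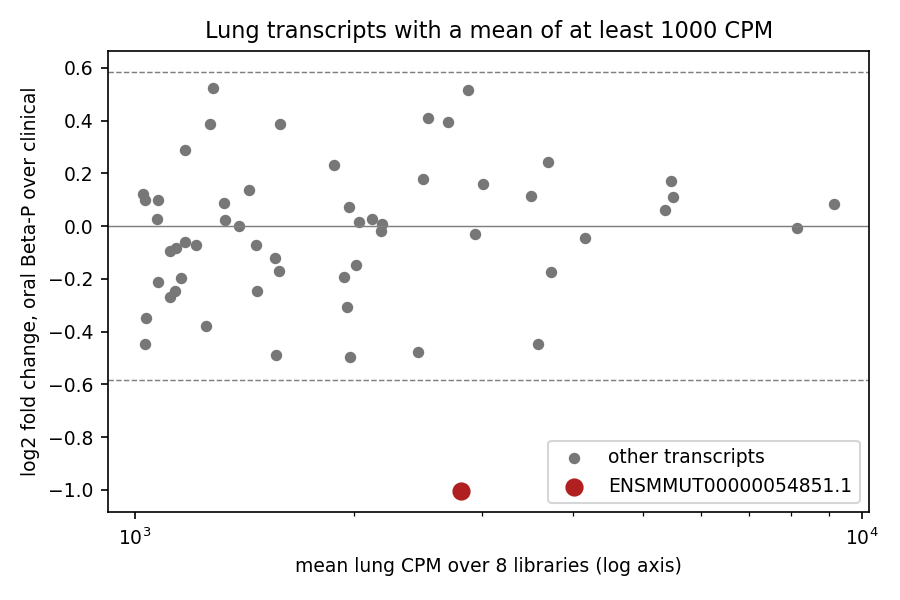
Log2 fold change of oral Beta-P over the clinical treatment (y axis) against mean lung CPM over 8 libraries (x axis, log scale) for the 56 lung transcripts with a mean of at least 1000 CPM. Each point is a transcript and dashed lines mark a fold change of 1.5. ENSMMUT00000054851.1 is at -1.01, and the 55 others lie between -0.50 and 0.52. This lung contrast chose ENSMMUT00000054851.1.

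In CPM, its fall was the largest of all 45579 transcripts listed, at 1873 CPM. The same lung values chose this abundant transcript, so its first place was favoured by the choice and is only a description. The next falls were those of ENSMMUT00000025039.3, with means of 4134 CPM with the clinical treatment and 3047 CPM with oral Beta-P, and of ENSMMUT00000010253.3, with 2846 and 2049 CPM. The values of the 2 treatments overlapped for both, as the oral animals reached 4266 CPM for the first and 2635 CPM for the second while the lowest clinical values were 3465 and 2140 CPM. The transcript described here alone made up 3.45% of the summed fall over the 20194 transcripts with a lower mean.

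No single transcript gained as much as was lost by this one, which the lung contrast had chosen. The largest gains were 1024 CPM for ENSMMUT00000064003.1, 738 CPM for ENSMMUT00000029953.3 and 723 CPM for ENSMMUT00000002071.3. All 3 were also read in the liver, at mean values of 321, 236 and 268 CPM, respectively, where the transcript described here had a mean of 0.403 CPM, or 0.0516 CPM over the 7 livers without oral animal 3.

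**Figure D3:**
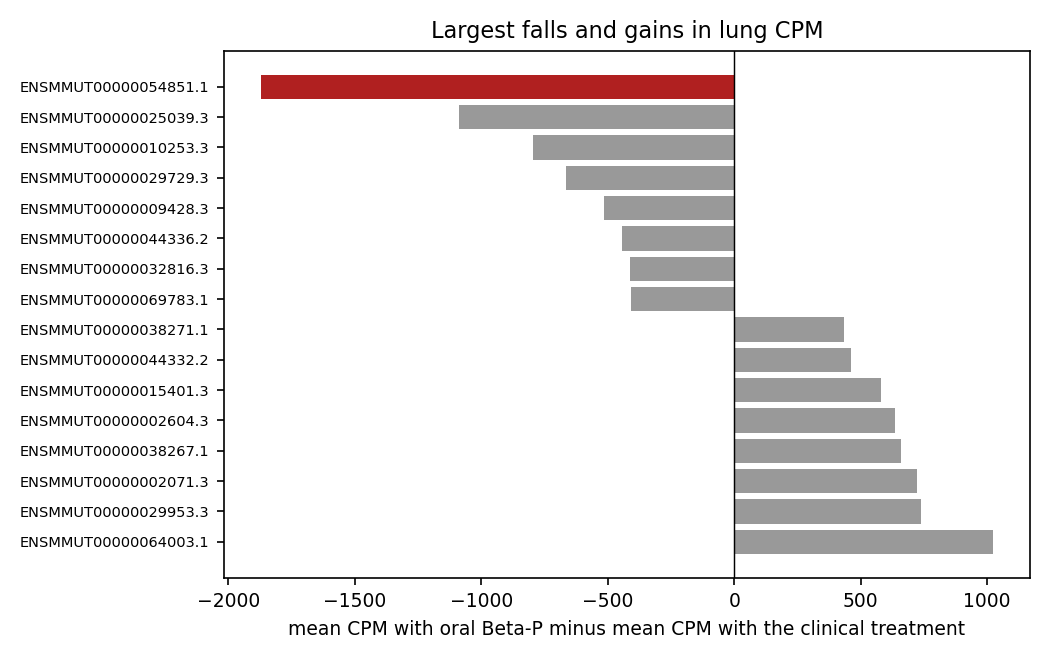
Mean lung CPM with oral Beta-P minus mean lung CPM with the clinical treatment (x axis) for the 8 transcripts with the largest falls and the 8 with the largest gains (y axis). The bar of ENSMMUT00000054851.1 reaches -1873 CPM, beyond the next fall of -1087 CPM and the largest gain of 1024 CPM. The same lung contrast chose ENSMMUT00000054851.1.

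In the liver the transcript was at the limit of detection. The clinical libraries held 2, 2, 1.20 and 1.20 estimated counts in animals 1 to 4. The oral libraries held 4.16 counts in animal 1, 0 in animal 2, 79.7 in animal 3 and 0 in animal 4. In CPM the clinical values were 0.0414 to 0.0722, and the oral values were 0.140, 0, 2.86 and 0. The liver of oral animal 3 thus stood apart from the other 7, in the direction opposite to that of the lung.

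In the hippocampus the clinical libraries held 0, 4, 0 and 0 counts in animals 1 to 4, and the oral libraries held 0, 5, 2 and 1 counts. The highest value was 0.154 CPM, in clinical animal 2, followed by 0.142 CPM in oral animal 2, and the treatments overlapped. The libraries with 0 counts in the liver and hippocampus allow a level of up to 0.0914 to 0.133 CPM, taking 3 counts as the limit.

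A lower value with oral Beta-P was therefore not seen in the other tissues, and at these counts a fall of the size measured in the lung could not have been detected. The transcript did not pass the filter on low counts in either tissue, so edgeR's test does not cover it there. The difference of oral Beta-P minus the clinical treatment in mean log2 normalised CPM was 0.93 in the liver (exact permutation test over 70 assignments, two-sided, p = 0.714). Without oral animal 3, the sole liver library from its sequencing run, the liver difference was -0.27 (exact permutation test, p = 0.657). In the hippocampus it was 0.34 (exact permutation test, two-sided, p = 0.657), with sequencing run almost the same division of the libraries as treatment. The smallest p-value that 4 against 4 allows is 0.0286. The difference of the effect between the lung and the other tissues was not tested, because the lung values had chosen the transcript.

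The distance between tissues was far larger than that between treatments. For the 6 animals whose liver count was at or below 3, the lung level was at least 15025-fold to at least 40189-fold higher than that of the liver, with the liver set at 3 counts. The ratio was 14148 in oral animal 1 and 577 in oral animal 3. Against the hippocampus it was at least 19042-fold to at least 36032-fold higher in the 6 animals at or below 3 counts, and 25565 and 14933 in clinical animal 2 and oral animal 2. In order of level the lung was first, and liver and hippocampus could not be ordered, since 6 of 8 libraries in each were at or below 3 counts. Ranked by mean CPM, its positions were 14, 24925 and 35321 in lung, liver and hippocampus, respectively. The liver position rests on oral animal 3, without which it was 32137. These ratios set tables side by side that were made separately.

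The value in the liver of oral animal 3 was compared with other lung-restricted transcripts in the same library. After the values were seen, these were taken as transcripts with a mean of at least 100 CPM in the lung and less than 1 CPM in every hippocampus library and in every liver library other than that of oral animal 3, which gave 16 transcripts including the one described here. The 15 others together held 42.1 counts in the liver of oral animal 3, with at most 9.22 for one of them, and 10 of the 15 were at or below 3 counts. ENSMMUT00000025039.3, at 2406 CPM in the lung of this animal, held 3 counts in its liver, whereas ENSMMUT00000054851.1, at 1653 CPM in the lung, held 79.7. Its CPM there was 0.173% of that in the lung of the same animal, against a median of 0.00561% over the 15 others. The highest value was 0.201%, for ENSMMUT00000016688.3, which held 8 counts in that liver and up to 10 in the other livers. ENSMMUT00000018277.3 was also above 0.173%, at 0.186%, with 7.31 counts in that liver and at most 1 in the other livers. The summed level of the 15 others was 1.51 CPM in the liver of oral animal 3 and 0.548 to 1.25 CPM in the other 7 livers. Whether these counts depend on the sequencing run, which this library shares with no other liver library, was not tested.

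**Figure D4:**
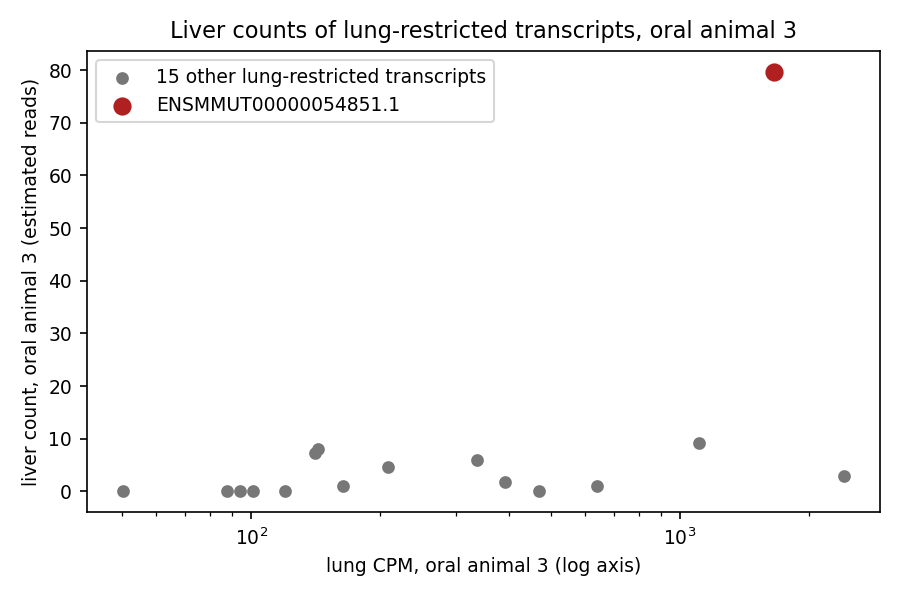
Estimated liver count of oral animal 3 (y axis) against lung CPM of the same animal (x axis, log scale) for 16 lung-restricted transcripts. ENSMMUT00000054851.1 has 79.7 counts, and the 15 others have at most 9.22, including ENSMMUT00000025039.3 with a higher lung level and 3 counts.

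Between treatments, the 15 other lung-restricted transcripts moved less than the one described here. Their median log2 fold change in the lung was -0.17, beside -0.0048 over all transcripts tested, with 10 lower and 5 higher with oral Beta-P and a range from -0.83 to 0.39. Of the 15, only ENSMMUT00000069783.1 was lower by at least 1.5-fold, which 7.55% of all transcripts tested were, and only it had all oral values below all clinical values, which held for 2.94% of all. The lung contrast chose ENSMMUT00000054851.1, and the list was made after values were seen. That the 15 others moved less is therefore only a description.

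ENSMMUT00000069783.1 was also the transcript whose lung values were most like those of ENSMMUT00000054851.1, with a Pearson r of 0.993 over the 8 lung libraries among 27107 transcripts. It was read at 911, 1030, 941 and 851 CPM in clinical animals 1 to 4 and at 579, 574, 468 and 485 CPM in oral animals 1 to 4. The oral values were all below the clinical values, and the mean fell from 933 ± 74.7 CPM (SD, n = 4) to 526 ± 58.1 CPM (SD, n = 4), or 56.4% of the clinical mean. Its log2 fold change was -0.83 with a standard error of 0.09, and it was not called (edgeR, adjusted p = 0.161).

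The 2 transcripts followed each other within treatments as well, but not in a fixed ratio. With the treatment means removed their r was 0.897 over the 8 libraries, which was position 89 among the 27107 transcripts. The CPM of ENSMMUT00000054851.1 was 3.83 to 4.28 times that of ENSMMUT00000069783.1 in the clinical lungs and 3.42 to 3.69 times in the oral lungs, so ENSMMUT00000054851.1 was lower by the larger factor. Outside the lung ENSMMUT00000069783.1 held 0.588 counts in all 8 liver libraries together and 1 count in all 8 hippocampus libraries together, and it held 0 in the liver of oral animal 3, where ENSMMUT00000054851.1 held 79.7. Whether the 2 identifiers belong to 1 gene or share reads is not given in the sources used here.

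**Figure D5:**
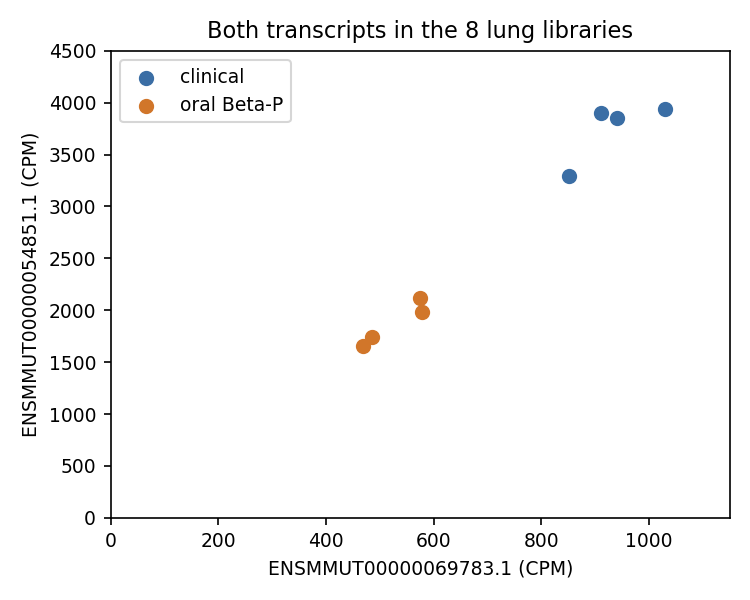
CPM of ENSMMUT00000054851.1 (y axis) against CPM of ENSMMUT00000069783.1 (x axis) in the 8 lung libraries, with 1 point per animal. The 4 oral animals lie at 468 to 579 CPM on the x axis and 1653 to 2118 CPM on the y axis, and the 4 clinical animals at 851 to 1030 and 3297 to 3942 CPM.

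The next transcripts by likeness over the 8 lung libraries were ENSMMUT00000025775.3 (r = 0.988, mean 1.10 CPM) and ENSMMUT00000074084.1 (r = 0.986, mean 45.7 CPM), and both were also read in the liver and the hippocampus. The 8 points fall into 2 groups, so these values mainly reflect a difference between treatments. With treatment means removed the closest were ENSMMUT00000072997.1 (r = 0.980), ENSMMUT00000073207.1 (r = 0.968) and ENSMMUT00000016244.3 (r = 0.968), whose lung means differed little between treatments, at 40.2 against 41.9 CPM, 5.35 against 5.78 CPM and 141 against 140 CPM with the clinical treatment and oral Beta-P, respectively. Over all 24 libraries the candidates were the 22448 transcripts that passed the filter in every tissue. ENSMMUT00000054851.1 itself did not pass it in the liver or hippocampus. Others read almost only in the lung, such as ENSMMUT00000069783.1, were therefore not among the candidates. Of these candidates ENSMMUT00000079209.1 (r = 0.988), ENSMMUT00000025439.3 (r = 0.986) and ENSMMUT00000018738.3 (r = 0.986) were closest. All 3 were read more in the lung than elsewhere, for example the first with lung, liver and hippocampus means of 78.6, 3.79 and 3.43 CPM. These r mainly reflect the difference between tissues. With tissue and treatment means removed the 3 closest over 24 libraries had r of 0.860 for ENSMMUT00000045211.2, 0.814 for ENSMMUT00000040186.2 and 0.800 for ENSMMUT00000067197.1, and outside the lung these rest on the few counts given above.

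Whether animals with more of the transcript in the lung also had more of it elsewhere could not be read from these libraries, since 6 of 8 were at or below 3 counts in both other tissues. The deviations from the treatment mean on the log2 scale had r = -0.496 between lung and liver over 8 animals (exact permutation within treatments, p = 0.319, adjusted p = 0.734 over 3 pairs of tissues) and rho = -0.167 (exact permutation p = 0.745, adjusted p = 0.990). Without oral animal 3 this r was 0.264, and without the 2 animals farthest from the lung median it was 0.215. Between lung and hippocampus r was 0.296 (exact permutation p = 0.490, adjusted p = 0.734) and rho 0.0719 (exact permutation p = 0.875, adjusted p = 0.990), with r = 0.375 without 2 animals. Between liver and hippocampus r was -0.0213 (exact permutation p = 0.938, adjusted p = 0.938) and rho 0.0120 (exact permutation p = 0.990, adjusted p = 0.990), with r = -0.0554 without 2 animals.

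The transcripts that followed it in the order of lung p-values lay outside the q-value threshold of 0.1. ENSMMUT00000054851.1 itself had a q-value of 0.0977 from edgeR's quasi-likelihood test, just inside it. That test chose the transcript, so its q-value and first place were set by the choice and are only a description. The next was ENSMMUT00000069783.1 at 0.161, and then came ENSMMUT00000059267.1 and ENSMMUT00000003594.3, both at 0.282. ENSMMUT00000059267.1 was read at 1.15 to 3.06 CPM in the clinical lungs and was at 0 in all oral lungs. ENSMMUT00000003594.3 was read at 26.6 to 32.05 CPM in the clinical and 18.7 to 20.01 CPM in the oral lungs.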

How the data were processed

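The authors aligned paired-end reads of 75 bases to the rhesus genome build MMUL1.0 with STAR and compared treatments with DESeq2, and the submitters' processing notes also name featureCounts. The deposited values are counts per Ensembl transcript for the lung and hippocampus and estimated counts for the liver, of which 55.4% are not whole, without normalization. The annotation release and the handling of reads shared by transcripts are not given in the sources used here, so the share of a value that rests on such reads is unknown. Liver values were rounded for the fits.

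The transcript and the lists were chosen with earlier results of these data known. In R 4.3.3, with edgeR 4.0.16 and limma 3.58.1, the quasi-likelihood test of edgeR was fitted tissue by tissue to all transcripts that passed filterByExpr (27108 in the lung, 25064 in the liver, 29041 in the hippocampus) with TMM normalization and Benjamini-Hochberg adjustment. Standard errors came from the F statistic, and log2 normalised CPM used a prior count of 2. The script was tested on simulated data. Single values were compared by exact permutation tests (Python 3.11.15, scipy 1.17.1). Alternatives were DESeq2 1.42.0, other normalizations and filters, a robust fit, covariates for sequencing run or gestational age, 1 sequencing run, and each library left out.

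Named transcripts were the one described, the 3 most like it by Pearson r under each measure, the 3 with the largest falls and gains in lung CPM, the next 3 by lung p-value and the rank neighbours. The measure with treatment means removed within the lung and the lung-restricted list were added after values were seen, and the named ends of the abundant group too. The liver and hippocampus rank neighbours, near 0.403 and 0.0478 CPM, are not named. Lists for tissue, blood, vessel and fibroblast markers and glucocorticoid targets were not used because 0 of the 45579 transcript identifiers are in the reference tables. P-values measure the spread between fetuses, 1 library each.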

Additional observations from a re-analysis of the deposited data

Results flagged for a closer look

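The level of the transcript was examined for a library far from the other 3 of its tissue and treatment. Of 6 groups of 4 animals, 3 had one. For continuous values chance gives about 0.3, which does not hold for counts near 0, and the lung values had chosen the transcript. In the lung, clinical animal 4 was at 3297 CPM and the other clinical animals at 3853 to 3942 CPM, and all 4 were above every oral animal. In the liver, oral animal 3 was at 2.86 CPM and the other oral animals at 0 to 0.140 CPM. In the hippocampus, clinical animal 2 was at 0.154 CPM and the other clinical animals at 0, so that the 4 counts of 1 library set the gap by themselves.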

How the results depend on the processing

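The lung log2 fold change stayed between -1.01 and -0.92 over 10 other settings, which were DESeq2, 3 normalizations, 2 filters, a robust fit, covariates for sequencing run or gestational age, and 1 run only. It stayed between -1.06 and -0.94 with each library left out. In the liver, where the transcript did not pass the filter on low counts, the difference moved from -0.27, without oral animal 3, to 1.5 with libraries left out. The fitted log2 values there of 3.66 from edgeR without a filter (adjusted p = 0.762 from edgeR) and 3.76 from DESeq2, which gave no p-value, rest on clinical counts of at most 2 and are no bound. In the hippocampus the difference lay between 0.05 and 0.77 with libraries left out, and was 0.55 from edgeR without a filter (adjusted p = 1.0 from edgeR) and 0.58 from DESeq2. Outside the lung, edgeR with covariates, 1 run or other normalizations gave no value for the transcript, because the filter had removed it. The rank was 25 in the oral lungs alone, 31666 in the clinical livers alone, 32137 in the livers without oral animal 3 (added after the data were seen), and 33233.5 as the median over hippocampus libraries. With each animal left out, r of the deviations lay between -0.700 and 0.264 for lung and liver (0.264 without oral animal 3), between 0.000953 and 0.498 for lung and hippocampus, and between -0.322 and 0.294 for liver and hippocampus (0.294 without oral animal 2). No paired analysis was possible because each fetus received 1 treatment, so the treatments share no animal. Depth limits the liver and hippocampus values, and the spread between 4 animals limits those of the lung.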
